A study of Mus musculus with 7 samples.

Results

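The liver-enriched transcription factors examined here were 8 genes, Hnf4a, Cebpa, Cebpb, Foxa1, Foxa2, Foxa3, Prox1 and Onecut1, out of 32285 genes in the count matrices of 7 single-cell libraries. They were chosen by name, and all 8 were present in every library. Their levels were read in cells of the hepatocyte lineage and in the other cells of the liver, where cells were assigned by marker genes that included none of the 8. The study bred mice that carry Alb-Cre and CAG-STOP flox/flox-Myc on a C57BL/6J background (ABC-Myc), in which Cre driven by the albumin promoter releases a human c-MYC transgene in cells of the hepatocyte lineage, and it also used healthy mouse livers. The study's text calls 4 libraries tumors (NEJ634, NEJ687, NEJ709 and NEJ723), and the other libraries (NEJ638, NEJ654 and NEJ677) were taken as its 3 healthy livers. The labels describe every library alike and state neither age nor group, and the description given for NEJ709 names NEJ634. No test between tumor and healthy libraries was therefore made, libraries were not treated as replicates, and values are set side by side.

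Hepatocytes keep their identity through a small network of DNA-binding proteins that bind each other's genes and the genes of metabolism and secretion. HNF4A is a nuclear receptor at the centre of that network, the FOXA proteins are pioneer factors that open chromatin at liver genes, and the C/EBP proteins are leucine zipper factors shared between hepatocytes and myeloid cells. PROX1 and ONECUT1 (HNF6) are homeodomain proteins of the early liver bud, and PROX1 also specifies lymphatic endothelium while ONECUT1 acts in bile duct formation.

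The promoters of Hnf4a and Foxa2 are shown because, among the members, only their windows held the ONECUT letters, and because both genes lay lower in the tumor libraries. In the RefSeq promoter table (GRCm38.p6), all 8 members matched, with 12 start sites in total. The Hnf4a sequence lies on the plus strand at chr2:163506607-163506807, ends at the last base before the annotated gene, and has the match in capitals (ATCAAT, which is ATTGAT on the opposite strand, 59 to 54 bases before the RefSeq start). The Foxa2 sequence lies on the minus strand at chr2:148046970-148047219 and is written in the direction of the gene, with ATTGAT on the same strand, 213 to 208 bases before the start.
Hnf4a: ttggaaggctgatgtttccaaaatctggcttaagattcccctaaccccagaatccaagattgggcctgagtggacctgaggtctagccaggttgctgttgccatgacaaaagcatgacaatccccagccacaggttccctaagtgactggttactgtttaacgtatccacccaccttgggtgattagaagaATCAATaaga
Foxa2: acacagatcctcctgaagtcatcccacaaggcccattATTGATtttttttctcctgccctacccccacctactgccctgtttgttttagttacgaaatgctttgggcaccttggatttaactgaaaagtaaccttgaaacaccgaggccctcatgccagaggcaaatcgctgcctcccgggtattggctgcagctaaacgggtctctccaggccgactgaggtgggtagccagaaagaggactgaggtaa
Both strands of the 250 bases before each start were searched in 32851 promoters. ATTGAT was found in 6.72% of them and in 2 of the 12 windows of members, 1 of the 2 starts of Hnf4a and 1 of the 3 of Foxa2. The window of the other Hnf4a start lies within the annotated gene, held no match and is not shown. Which start the cells used was not tested. The FOXA letters (TGTTTAC or TGTTTGC) were found in 7.29% of promoters and in 2 of the 12 windows of members, those of Foxa1 and of 1 of the 2 starts of Prox1. The C/EBP letters (TTGCNNAA) were found in 9.56%, the HNF4 letters (CAAAGTCCA) in 0.384% and the HNF1 consensus in 0.00913%, each in 0 members. A match of letters is a description and not a binding site.

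The tissue was dissociated with collagenase and not sorted by cell type per the study's methods, although the series text speaks of nuclei. After doublet removal 72754 cells were analysed, of which 7599 were hepatocyte-lineage-like. The total UMI count (unique molecular identifiers, which mark transcript molecules) per library ranged from 40214395 to 132485391. Levels are UMIs per 1000000 UMIs (CPM), summed over the cells of a class in a library. Parentheses hold exact intervals at the 95% level, by Poisson counts for levels and by Clopper-Pearson for shares, which cover counting error only. The hepatocyte-lineage-like class held 5468 cells in NEJ634, 263 in NEJ687, 335 in NEJ638, 566 in NEJ654 and 949 in NEJ677. NEJ709 and NEJ723 had 9 such cells each, below the minimum of 20, and give no level. In all 5 libraries that gave one, every one of the 16 hepatocyte markers reached 10 CPM. T/NK-like cells of NEJ638, NEJ654 and NEJ677 also reached it for all 16, so this count does not set the class apart. The summed markers were 28618 CPM in NEJ634 and 35487 in NEJ687, against 81548.5 to 134566 in the healthy libraries. In T/NK-like cells of these 5 libraries they were 501 to 3107 CPM. Hepatoblast markers summed to 11164 and 13127 CPM in the tumors, against 12.7 to 314 in the healthy libraries. The clusters behind the class differed between libraries. Cluster 0, led by H19, Fabp6, Afp and Igf2, held 5350 of the cells of NEJ634 and 224 of those of NEJ687. Cluster 32, led by Serpina3k and Mup3, held 317 cells of NEJ638, 330 of NEJ654, 159 of NEJ677 and 114 of NEJ634. Cluster 33, of low UMI counts, held 789 cells of NEJ677 and 233 of NEJ654. The share of UMIs in the class that matched the library's ambient profile (free RNA read from low-ranked barcodes) was estimated at 35.3% in NEJ634. It was 9.90% to 15.2% in the others. The estimate set markers of other classes against their ambient level. The ambient barcodes of NEJ634 held 210 to 952 UMIs, some of them over the 500 UMIs asked of cells. In the other libraries their highest total was 90 to 460 UMIs. The ambient values of NEJ634 below thus rest on barcodes that were not near-empty. In NEJ709, 91.4% of cells stayed unnamed, all in clusters close to the ambient profile. In NEJ634, 26.1% of cells stayed unnamed, 4445 in all, with 4006 in cluster 3 and 103 in cluster 18, which were both of that kind. Between 11 and 191 cell barcodes were shared by each pair of libraries, most between NEJ654 and NEJ677, and without them the values of the members in hepatocyte-lineage-like cells moved by less than their intervals. In the Epcam- and claudin-rich cells of NEJ709, leaving them out kept 46 of 91 cells and took Cebpa from 51.0 to 102 CPM. The part of free RNA in the values below was not tested beyond the subtraction given for single members.

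Hnf4a, Cebpa, Foxa1 and Foxa2 were lower in both tumor libraries than in each of the 3 healthy libraries in hepatocyte-lineage-like cells. Foxa3, Prox1, Onecut1 and Cebpb overlapped between the tissues, and 0 of the 8 members lay higher in every tumor library. Among 6935 genes of at least 20 CPM in 1 or more of these libraries, 22.8% lay below in this way and 36.6% lay above. Foxa1 and Foxa2 reached 20 CPM only in healthy libraries, so they entered the count through the side on which they were high. The median log2 difference between tumor and healthy medians (pseudocount of 1) was -0.70 over the members and 0.28 over all genes tested.

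**Figure D1:**
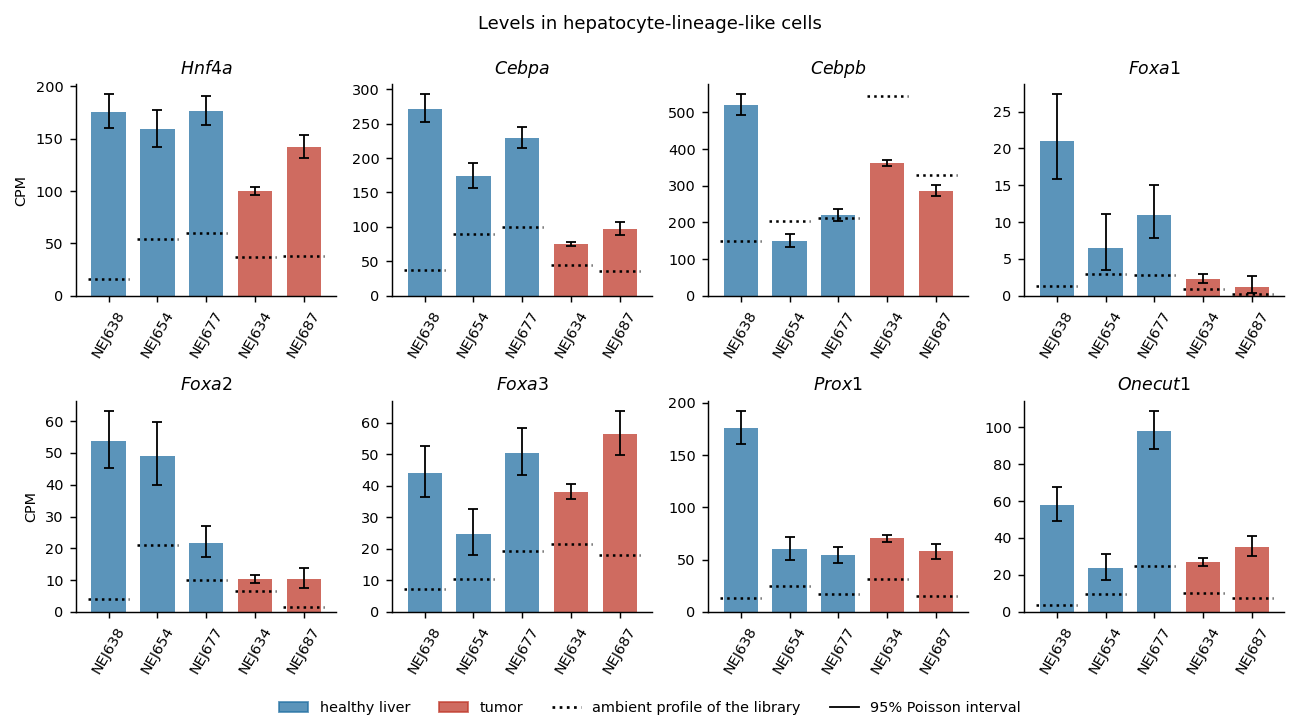
Level of each member in hepatocyte-lineage-like cells (CPM, linear axis from 0), with 1 bar per library colored by the tissue named in the study, exact 95% Poisson intervals as error bars, and the level in the ambient profile of the library as a dotted line. The bars of NEJ634 and NEJ687 lie below all 3 healthy bars for Hnf4a, Cebpa, Foxa1 and Foxa2 and overlap them for the other members, and for Cebpb the dotted lines reach or exceed the bars in every library but NEJ638 and NEJ677.

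Hnf4a (ENSMUSG00000017950, GRCm38 chromosome 2, 163506808 to 163572910, plus strand, 3 to 10 exons per transcript) encodes the nuclear receptor that hepatocytes need to express most of their metabolic and clotting genes. Among hepatocyte-lineage-like cells, NEJ634 had 100.2 CPM (96.3 to 104) and NEJ687 had 142 (132 to 154). It was 176 (160 to 192) in NEJ638, 159 (142 to 178) in NEJ654 and 177 (163 to 191) in NEJ677. Both tumor libraries were low and the 3 healthy libraries lay close together, although the intervals of NEJ687 and NEJ654 overlapped. With each cell weighted equally the ranges overlapped, at 154 in NEJ687 against 139.6 in NEJ654. After ambient subtraction NEJ634 stood at 135 and NEJ687 at 154, below the 178 of NEJ654. Hnf4a has an adult and a fetal promoter, and counts per gene do not tell their transcripts apart. The antisense gene Hnf4aos overlaps it on the opposite strand.

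Within NEJ634, which had cells in clusters 0 and 32, Hnf4a was 98.7 CPM (94.8 to 103) in the 5350 cells of cluster 0 and 157 (128 to 191) in the 114 cells of cluster 32. The latter lay near the 162 to 174 CPM that cluster 32 showed in the healthy libraries. Alb, the major plasma protein of hepatocytes, was 4047 CPM in cluster 0 and 11754 in cluster 32 of that tumor, against 41206 to 69895 in cluster 32 of the healthy livers. Afp, the fetal plasma protein, was 2455 and 1404 CPM in these clusters of NEJ634 and between 1.32 and 9.19 in cluster 32 of the healthy livers. In NEJ687, Hnf4a was 142 CPM (131 to 153) in the 224 cells of cluster 0 and 335 (145 to 660) in 36 cells of cluster 33, where the value rests on 8 UMIs. That cells of NEJ634 shared cluster 32 with healthy hepatocytes depended on the resolution of the clustering. At a Leiden resolution of 2, 109 hepatocyte-lineage-like cells of NEJ634 formed a cluster with 0 healthy cells, and 5 stayed with the healthy hepatocytes. The part of free RNA in the values of cluster 32 was not tested.

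Across cell classes, Hnf4a was highest in hepatocyte-lineage-like cells in 4 of 5 libraries, beyond the interval of every other class. The exception was NEJ634, where Epcam- and claudin-rich cells reached 194.96 CPM (163 to 231), although with the lineage set cell by cell they had 93.3 against 106 in the lineage. By the median over libraries the order ran from hepatocyte-lineage-like cells (159) over Epcam- and claudin-rich cells (51.4, or 46.1 without NEJ687, whose cells of this class lacked Epcam) and epithelial-like cells (43.6) to B-like cells (5.55) and endothelial-like cells (4.67). The ranges of the first pair overlapped, as did those of the last pair, and B-like cells lay below epithelial-like cells without overlap. T/NK-like cells, which should lack the gene, had 0 to 5.75 CPM. In promyelocyte-like cells of NEJ634 Hnf4a stood at 37.2 CPM, next to an ambient level of 36.6, and at 0.895 to 1.89 in the other tumor libraries.

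**Figure D2:**
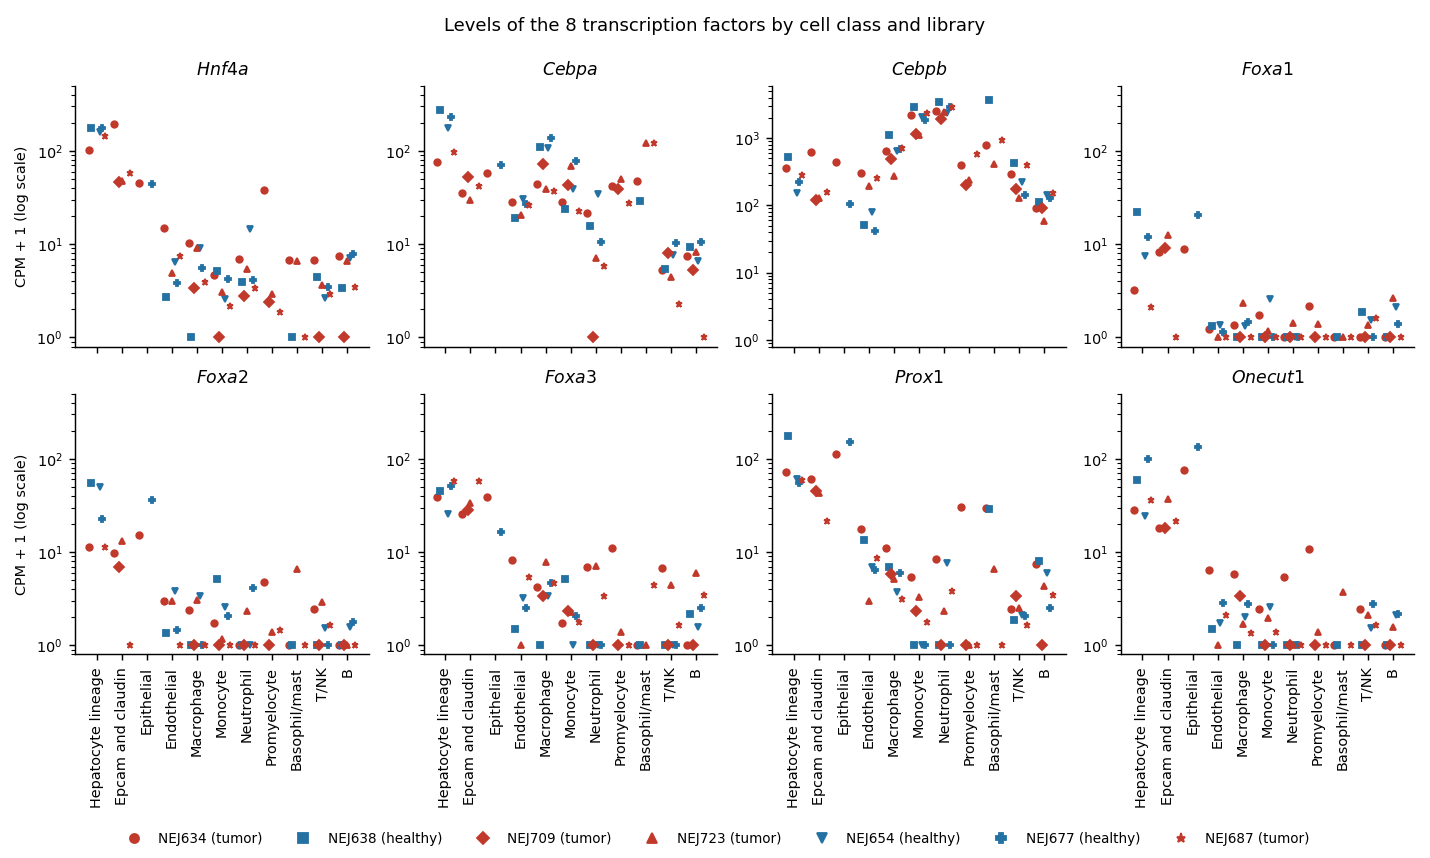
Level of each member (CPM plus 1, log axis, with a taller axis for Cebpb) by cell class, with 1 point per library of at least 20 cells in the class, colored by tissue. Hnf4a, Foxa1, Foxa2, Foxa3, Prox1 and Onecut1 have their highest points in the 3 hepatocyte and epithelial classes, Cebpa is also high in macrophage-like and basophil/mast-like cells, and Cebpb is highest in neutrophil-like and monocyte-like cells apart from 1 point in basophil/mast-like cells. The NEJ687 point of the Epcam- and claudin-rich class comes from 121 cells with 0 UMIs of Epcam.

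The FOXA genes behaved unequally. Foxa1 (ENSMUSG00000035451, chromosome 12, 57540628 to 57546916, minus strand, 2 exons) and Foxa2 (ENSMUSG00000037025, chromosome 2, 148042877 to 148046969, minus strand, 2 or 3 exons) encode the pioneer factors that mark liver genes in foregut endoderm. Foxa2 stood at 10.3 CPM in both tumor libraries (9.10 to 11.7 in NEJ634 and 7.54 to 13.7 in NEJ687). It was 53.8 (45.3 to 63.3) in NEJ638, 49.2 (39.9 to 59.9) in NEJ654 and 21.7 (17.1 to 27.1) in NEJ677. Values of the tumor libraries were nearly equal, and the lowest healthy library lay above both intervals. NEJ677 drew most of its cells from the cluster of low UMI counts, where Foxa2 was 14.3 CPM, while its cells of cluster 32 had 34.4. In cluster 32 of NEJ634 Foxa2 was 13.9 CPM (6.36 to 26.4), from 9 UMIs, against 34.4 to 53.6 in that cluster of the healthy libraries.

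Foxa1 was the member with the fewest UMIs. It had 55 UMIs in NEJ634 and 5 in NEJ687, against 56, 13 and 39 in NEJ638, NEJ654 and NEJ677. This gave 2.26 CPM (1.70 to 2.94) and 1.12 (0.363 to 2.61) in the tumors, and 21.1 (15.9 to 27.3), 6.52 (3.47 to 11.2) and 10.99 (7.82 to 15.03) in the healthy livers. The tumor and healthy intervals did not meet. Those of NEJ654 and NEJ687 overlapped the intervals of their ambient profiles, 1.75 to 4.67 and 0.00734 to 1.62 CPM. With each cell thinned to 1000 UMIs, the share of cells with Foxa1 was 0.573% in NEJ654 (0.0695 to 2.05). This overlapped the intervals of NEJ634 (0.113 to 0.383) and NEJ687 (0 to 1.73). In Epcam- and claudin-rich cells of NEJ723 Foxa1 reached 11.6 CPM (10.1 to 13.3) from 207 UMIs, within the range of the healthy hepatocytes, but with each cell weighted equally it was 4.64, below all of them. That class was counted with the lineage in an alternative, and Foxa1 then overlapped between the tissues.

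Foxa3 (ENSMUSG00000040891, chromosome 7, 19013284 to 19023538, minus strand, 2 exons) encodes the FOXA protein best known from the adult liver. It showed no such separation, with 38.1 CPM in NEJ634, 56.4 in NEJ687, 44.0 in NEJ638, 24.6 in NEJ654 and 50.5 in NEJ677. At the top was a tumor and at the bottom a healthy liver. In Epcam- and claudin-rich cells it was 24.5 CPM in NEJ634, 27.0 in NEJ709 and 32.96 in NEJ723, against ambient levels of 21.4, 4.84 and 28.8, so it stood near the ambient level in NEJ634 and NEJ723. The ambient share of that class was estimated at 34.9%, 10.7% and 20.4% in the same order, and the part of free RNA in Foxa3 was not tested. Outside the epithelial and hepatocyte classes the medians of the 3 FOXA genes were at most 4.14 CPM, and the 23.8 CPM of Foxa3 in megakaryocyte-like cells of NEJ723 had an upper bound of 85.8.

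Cebpa (ENSMUSG00000034957, chromosome 7, 35119293 to 35121928, plus strand, 1 or 2 exons) encodes the C/EBP protein of mature hepatocytes, which also starts the granulocyte and monocyte program. In hepatocyte-lineage-like cells it was 75.2 CPM (71.8 to 78.7) in NEJ634 and 96.9 (88.0 to 107) in NEJ687. The healthy values were 272 (252 to 292) in NEJ638, 174 (156 to 193) in NEJ654 and 229 (214 to 246) in NEJ677. Even the lowest healthy library lay well above the highest tumor library, and this held under each of the alternatives run. Cebpa also differed from Hnf4a within NEJ634, where cluster 32 had 80.3 CPM (59.97 to 105), like the 75.0 of cluster 0 and unlike the 165 to 271 of cluster 32 in the healthy livers. Cebpa was thus low in both clusters of that tumor, whereas Hnf4a was low in cluster 0, with the same dependence on clustering. After ambient subtraction Cebpa was 92.1 in NEJ634 and 104 in NEJ687, against 189 in NEJ654. By the median over libraries, hepatocyte-lineage-like cells (174) were followed by basophil/mast-like (82.9), macrophage-like (72.0) and epithelial-like cells (63.6), and the ranges of neighbours in this order overlapped. The antisense gene Gm45091 overlaps its start.

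Cebpb (ENSMUSG00000056501, chromosome 2, 167688915 to 167690418, plus strand, a single exon) encodes the C/EBP protein induced in the acute phase response and in activated myeloid cells. Over the hepatocyte lineage it stood at 362 CPM in NEJ634, 286 in NEJ687, 521 in NEJ638, 149 in NEJ654 and 219.6 in NEJ677. Both the highest and the lowest value came from healthy livers. The ambient profiles held 545, 328, 149, 202 and 211 CPM of Cebpb in the same order, so the level in the lineage lay clearly above its own ambient profile in NEJ638 alone. The ambient share of the class was estimated at 35.3% in NEJ634 and 9.90% to 15.2% in the others. This comparison of levels therefore does not give the part of free RNA in Cebpb. Summed macrophage markers in the class, another source of Cebpb, were 895 CPM in NEJ634 and 809.7 in NEJ654, against 59.4 to 228 in the others, and their part in the values was not tested. The gene Tmem189 overlaps Cebpb on the opposite strand, and strand-specific counting is not stated in the sources used here.

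Prox1 (ENSMUSG00000010175, chromosome 1, 190118035 to 190170714, minus strand, 5 exons) encodes the homeodomain protein that hepatoblasts need to leave the liver bud. It was 70.3 CPM in NEJ634, 57.8 in NEJ687, 176 in NEJ638, 59.7 in NEJ654 and 54.1 in NEJ677. One healthy library stood apart at the top, NEJ654 lay between the tumors and NEJ677 lay below both. Onecut1 (ENSMUSG00000043013, chromosome 9, 74861921 to 74891781, plus strand, 2 exons) was 27.0 CPM in NEJ634, 35.4 in NEJ687, 57.9 in NEJ638, 23.6 in NEJ654 and 98.1 in NEJ677. NEJ654 alone kept the tissues from separating. The antisense genes Gm28172 and Prox1os overlap Prox1, and the lincRNA Gm20649, which was not in the matrices, overlaps Onecut1 on the same strand.

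Prox1 and Onecut1 were higher in epithelial-like cells (cluster 2, marked by Epcam, Krt19 and Spp1) than in hepatocyte-lineage-like cells. In these cells Prox1 was 113 CPM (88.0 to 142) in NEJ634 and 152 (108 to 208) in NEJ677, above the lineage of the same library beyond the interval in both. Onecut1 was 74.6 CPM (54.8 to 99.2) in NEJ634, above the lineage, and 132 (91.7 to 185) in NEJ677, where the intervals met. Hnf4a went the other way, with 44.4 CPM in NEJ634 and 42.8 in NEJ677. The class held 182 cells in NEJ634, of which 61.0% of UMIs matched the ambient profile, and 21 cells in NEJ677. In NEJ634 all 10 macrophage markers reached 10 CPM in it, with a sum of 3523 CPM beside 5075 for the epithelial markers and 895 for macrophage markers in the lineage, and their part in the values was not tested. The ambient levels in NEJ634 were 31.4 CPM for Prox1 and 10.4 for Onecut1, below the levels in the class.

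**Figure D3:**
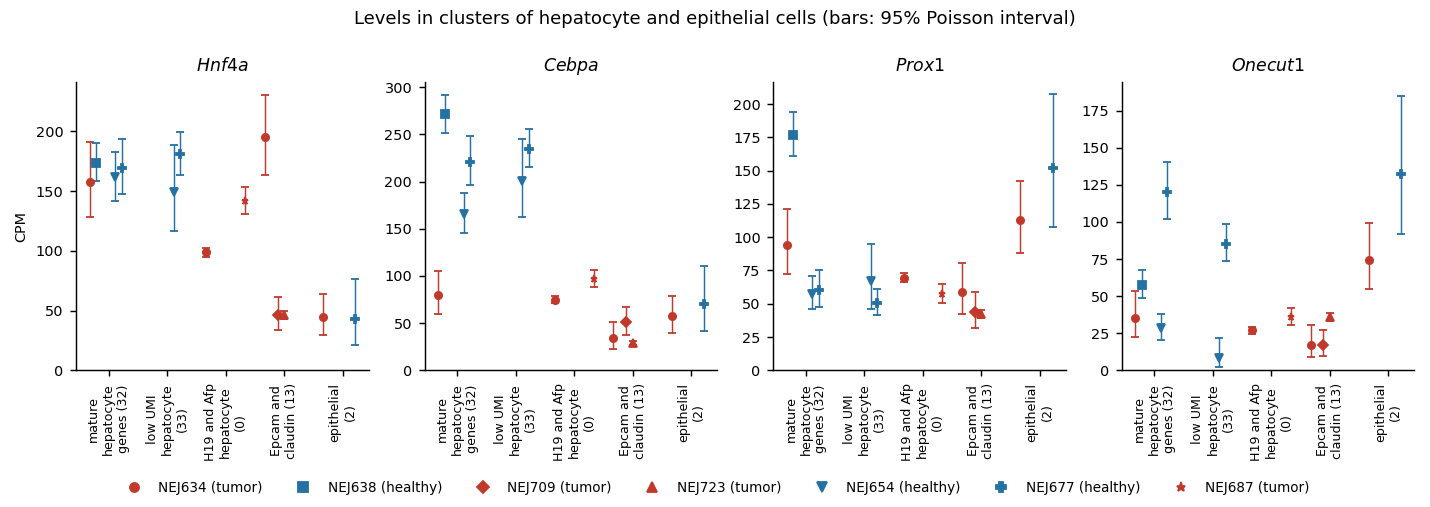
Level (CPM) of Hnf4a, Cebpa, Prox1 and Onecut1 in the clusters of hepatocyte-lineage-like (32, 33 and 0), Epcam- and claudin-rich (13) and epithelial-like (2) cells, with 1 point per cluster and library and exact 95% Poisson intervals as bars. The points of NEJ687 in clusters 13 and 33, which had median depths of 735 and 589.5 UMIs per cell, are not drawn. Within NEJ634, Hnf4a is 98.7 CPM in cluster 0 and 157 in cluster 32, while Cebpa is 75.0 and 80.3, and Prox1 and Onecut1 are highest in cluster 2.

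The Epcam- and claudin-rich cells (cluster 13) carried Epcam, Cldn6, Afp and Igf2 with low Cps1, and they made up 14.4% of the cells of NEJ723. The class held 1790 cells in NEJ723, 178 in NEJ634, 91 in NEJ709 and 121 in NEJ687. As given above, part of the 91 cells carried barcodes that were kept in other libraries too. NEJ709 shared 118 kept barcodes with NEJ723, more than with any other library. Values of NEJ709 in this class may therefore not be independent of those of NEJ723, which was not tested. The cells of NEJ687 had 0 UMIs of Epcam, Cldn6 and Krt19, reached 10 CPM for 1 of 9 epithelial markers and had a median of 735 UMIs, so they were not read as such cells. In NEJ709 and NEJ723 Hnf4a was 46.0 CPM (33.7 to 61.3) and 46.1 (43.0 to 49.3), against ambient levels of 7.74 and 23.7, and with each cell weighted equally the value of NEJ709 was 22.5. The value of 194.96 in NEJ634 stood far above both, but it depended on which cells were counted, with 123 CPM at a Leiden resolution of 2, 122 without doublet removal and 93.3 with the lineage set cell by cell. Cebpa was 34.7 CPM in NEJ634, 51.0 in NEJ709 and 29.0 in NEJ723, and the ambient levels of NEJ634 and NEJ723 were higher, at 44.1 and 37.8. Prox1 was 59.2, 44.0 and 42.3 CPM, and Onecut1 17.3, 17.0 and 35.6, in NEJ634, NEJ709 and NEJ723. The ambient levels of Onecut1 were 10.4, 0.967 and 8.71. In NEJ634 its interval (8.95 to 30.3) overlapped that of the ambient profile (9.20 to 11.7). Foxa1 was 7.22, 7.99 and 11.6 CPM in NEJ634, NEJ709 and NEJ723, against ambient levels of 0.858, 0.967 and 3.16. Foxa2 was 8.66 CPM (3.18 to 18.9), 5.996 (2.20 to 13.1) and 12.3 (10.7 to 14.0) in the same order, against 6.63, 0.967 and 4.94, and in NEJ634 and NEJ709 its intervals overlapped those of the ambient profile. The interval of Foxa1 in NEJ709 (3.45 to 15.8) did so too. Cebpb, at 625 CPM in NEJ634 and 119.9 and 127 in NEJ709 and NEJ723, stood beside ambient levels of 545, 253 and 130, so it was near the ambient level in NEJ634 and NEJ723 and below it in NEJ709.

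Shares of cells with a UMI were compared after thinning each cell to 1000 UMIs and leaving out shallower cells. This kept 5468 hepatocyte-lineage-like cells in NEJ634, 211 in NEJ687, 304 in NEJ638, 349 in NEJ654 and 679 in NEJ677. Hnf4a was found in 8.85% of thinned hepatocyte-lineage-like cells of NEJ634 (8.11 to 9.64) and 13.7% of NEJ687 (9.40 to 19.1). It was found in 18.8% of NEJ638 (14.5 to 23.6), 11.2% of NEJ654 (8.07 to 14.96) and 17.4% of NEJ677 (14.6 to 20.4), so the tissues overlapped by this measure. Without thinning the shares were 29.0%, 63.9%, 63.9%, 29.7% and 36.2% in NEJ634, NEJ687, NEJ638, NEJ654 and NEJ677, at median depths of 2988.5, 13130, 8516, 1488.5 and 1878 UMIs in that order. Cebpa was found in 6.51% (5.87 to 7.20) and 7.11% (4.03 to 11.5) of thinned cells in the tumors. Its shares were 26.6% (21.8 to 31.99), 17.8% (13.9 to 22.2) and 21.2% (18.2 to 24.5) in the healthy livers, with no overlap between tissues, and 23.1%, 51.7%, 72.8%, 31.98% and 41.8% unthinned. In lymphocyte classes (T/NK-like and B-like, at median depths of 1279 to 7870 UMIs) the thinned share was at most 2.99% for Hnf4a and 1.49% for Cebpa. Cebpb was found in 11.3% to 31.8% of thinned T/NK-like cells, and its 13.2% to 38.2% in hepatocyte-lineage-like cells was not read as above theirs. Of thinned B-like cells, 7.02% to 14.9% had a UMI of any member, so the share of Cebpb was no higher there. In NEJ638, where the level exceeded the ambient profile, the share was 38.2% (32.7 to 43.9) against 30.03% (26.3 to 33.9) in T/NK-like cells, with overlapping intervals. B-like cells of NEJ638 had a UMI of any member in 12.3%, below the share of Cebpb in the lineage. Cells with a UMI of any of the 6 members other than the C/EBP genes made up 19.5% of thinned hepatocyte-lineage-like cells in NEJ634 and 27.5% in NEJ687, against 39.8%, 24.9% and 34.6% in NEJ638, NEJ654 and NEJ677. NEJ654 lay between the tumors in this count. The share was at most 1.48% in T/NK-like cells and 4.48% in B-like cells, the latter in NEJ634. In NEJ634 it was also 4.42% in endothelial-like and 7.62% in promyelocyte-like cells.

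Outside the liver lineages only the C/EBP genes were well detected. Cebpb was highest in neutrophil-like cells, at 1927 to 3395 CPM over 7 libraries, and next in monocyte-like cells, at 1117 to 2862. The tumor and healthy ranges overlapped in both classes, as they did in macrophage-like cells (275 to 710.0 in tumors and 636 to 1104 in healthy livers). Basophil/mast-like cells of NEJ638 reached 3725 CPM in 23 cells, while the other libraries stood at 408 to 922. Along the granulocyte series Cebpb was 201 to 584 CPM in promyelocyte-like cells and 376 to 855 in myelocyte-like cells, both below the neutrophil-like range. Cebpa was 26.8 to 49.2 CPM in promyelocyte-like cells and 0 to 8.92 in myelocyte-like cells, without overlap, and 0 to 33.5 in neutrophil-like cells, which overlapped both. The promyelocyte-like values of 41.0 in NEJ634, 26.8 in NEJ687, 38.4 in NEJ709 and 49.2 in NEJ723 stood beside ambient levels of 44.1, 35.7, 21.3 and 37.8. The ambient share of that class was estimated at 53.6% in NEJ634, 23.5% in NEJ687 and 67.3% in NEJ709. In NEJ723 the estimate stood at its cap of 95% and gives no share. The median there was 18949 UMIs per cell, while the ambient barcodes of that library held at most 460. The 0 UMIs of Cebpa in the 128 neutrophil-like cells of NEJ709 allow a level of up to 5.34 CPM.

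Cebpa was lower in macrophage-like cells of the 4 tumors than of the 3 healthy livers. It was 43.2 CPM in NEJ634, 35.8 in NEJ687, 72.0 in NEJ709 and 37.6 in NEJ723, against 109 in NEJ638, 108 in NEJ654 and 137 in NEJ677. These ranges did not overlap, and among 7097 genes tested in these cells 16.4% lay lower in every tumor. The cells came from different clusters, since most tumor cells were in clusters 7 and 23 and most healthy cells in cluster 8. The values of NEJ634, NEJ687 and NEJ723 were within 1 CPM of their ambient levels, and those of NEJ654 and NEJ677 exceeded ambient levels of 89.0 and 100.2. Cebpa and Cebpb were the only members to reach 20 CPM in this class. Basophil/mast-like cells had 121 CPM of Cebpa (84.5 to 169) in NEJ687 and 119 (86.4 to 161) in NEJ723, from 35 and 43 UMIs, and the interval in NEJ687 overlapped that of its hepatocyte lineage (88.0 to 107).

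Cebpb was higher in endothelial-like cells of the tumors, at 307 CPM in NEJ634, 253 in NEJ687 and 196 in NEJ723, than of the healthy livers, at 50 in NEJ638, 77.6 in NEJ654 and 40.9 in NEJ677. Among 8073 genes tested, 11.1% lay above in this way. Tumor cells were mainly in cluster 6 in NEJ634 and most healthy cells were in clusters 20, 21 and 31, and the ambient levels were 545, 328 and 130 CPM in the tumors and 149 to 211 in the healthy livers. Cebpb also lay above in erythroid-like cells (42.8 to 86.7 against 9.11 to 12.2 CPM), where 95.5% of genes did. Most healthy erythroid-like cells were in cluster 14 and haemoglobin took 83.1% to 91.8% of the UMIs of the class, while most tumor cells were in clusters 10, 11, 12 and 29 and the share was 27.8% to 51.6%. Cebpb lay above as well in plasmacytoid dendritic-like cells (193 to 273 against 135 to 169.97), where 6.42% did. The tumor pools there held 37 to 149 cells. It lay below in mesenchymal-like cells, at 209 and 211 CPM against 231 to 346, where 24.1% of genes did. The tumor pools there held 82 cells in NEJ634 and 22 in NEJ723, with ambient shares estimated at 68.3% and 70.2%. The estimate of NEJ638 stood at its cap of 95%. Both calls rest on the levels alone, without their counting intervals.

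Prox1 was low in endothelial-like cells, at 1.96 to 16.7 CPM, and at or below the ambient level in each library. Of 5 lymphatic endothelial genes, 3 reached 20 CPM there. Flt4, the lymphatic growth factor receptor that liver sinusoids share, was 242 to 699 CPM and Lyve1, a hyaluronan receptor of both, was 243 to 1246. Ccl21a, a chemokine of lymphatic vessels, was 25.3 CPM in NEJ654 and at most 0.219 elsewhere, and Pdpn and Mmrn1, the more selective markers, were at most 0.187 and 1.497.

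The other hepatocyte transcription factors and nuclear receptors were read from a list of 22 genes, of which 18 reached 20 CPM in hepatocyte-lineage-like cells. Of these 18, 8 were lower in both tumors than in every healthy library (Nr1h4, Nr5a2, Nr1i3, Nr1h3, Ppara, Rxra, Onecut2 and Zbtb20), 0 were higher and 10 overlapped, beside the 22.8% and 36.6% of all genes. Nr1i3 and Onecut2 reached 20 CPM in healthy libraries only. Onecut2, the paralog of Onecut1, was 8.82 CPM in NEJ634 and 12.8 in NEJ687, against 138, 79.8 and 88.0 in NEJ638, NEJ654 and NEJ677. It was separated between the tissues where Onecut1 was not. Zbtb20, a repressor of Afp in the postnatal liver, was 43.2 and 12.8 CPM in the tumors and 231 to 268 in the healthy livers. Nr1h3, the oxysterol receptor LXR alpha, was 32.8 and 13.9 CPM against 59.0 to 81.2. Nr2f2, an orphan nuclear receptor, overlapped at 19.03 to 35.0 against 30.2 to 79.3 CPM. The circadian factors Dbp and Tef were highest in NEJ638, at 109 and 82.3 CPM, and stood at 5.02 and 16.6 in NEJ654, so the healthy libraries were wide apart for both.

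**Figure D4:**
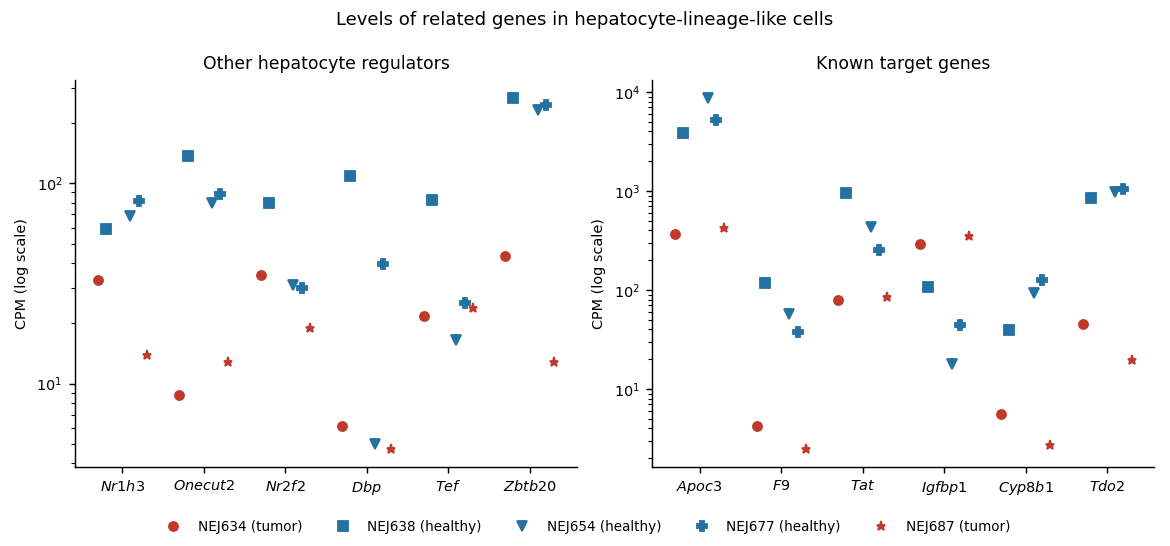
Level in hepatocyte-lineage-like cells (CPM, log axis) of 6 other hepatocyte regulators on the left and 6 known target genes on the right, with 1 point per library colored by tissue. Nr1h3, Onecut2, Zbtb20, Tdo2, Apoc3, F9, Cyp8b1 and Tat lie lower in both tumors, Igfbp1 lies higher, and Dbp, Tef and Nr2f2 overlap.

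Of 7 fetal liver and progenitor regulators, Sox9 alone reached 20 CPM in hepatocyte-lineage-like cells, and it overlapped. Sall4 and Sox4 stayed under that limit and were highest in tumors. Sall4 was 17.9 CPM in NEJ687 with a median of 0 over the libraries, and Sox4 was 15.4 in NEJ634 with a median of 2.91. Hmga2, Sox11, Plagl1 and Tbx3 were highest in healthy libraries, at no more than 16.6 CPM. Sox9, the biliary and progenitor factor, was 37.4 CPM in NEJ634, 9.40 in NEJ687, 27.1 in NEJ638, 9.53 in NEJ654 and 3.10 in NEJ677. Of 14 known targets of the members, all of which were tested, 13 lay lower in both tumors and 1 lay higher, beside the 22.8% and 36.6% of all genes. F9, Pklr and Cyp8b1 reached 20 CPM in healthy libraries only. Tdo2, the hepatic tryptophan dioxygenase, was 44.9 CPM in NEJ634 and 19.7 in NEJ687, against 858 to 1038. Apoc3, an apolipoprotein controlled by HNF4A, was 368 and 421 CPM against 3822 to 8801, and Tat, tyrosine aminotransferase, 79.8 and 85.1 against 253 to 967. F9, a clotting factor, was 4.27 and 2.46 CPM against 38.1 to 117, and Cyp8b1, the sterol 12-alpha-hydroxylase of bile acid synthesis, 5.54 and 2.69 against 39.1 to 126. Igfbp1, an insulin-regulated binding protein and FOXA target, was the exception at 294 and 352 CPM against 18.1 to 108.

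In myeloid cells the C/EBP relatives had their peaks in different classes. Cebpe, the factor of late granulocyte maturation, was 255 to 529 CPM in myelocyte-like cells, 34.6 to 169 in neutrophil-like cells and at most 14.4 in monocyte-like cells. Cebpd, an inducible relative, was 164 to 497 CPM in myelocyte-like and 160.5 to 564 in neutrophil-like cells. Cebpg, a partner of the others, ranged from 11.9 to 128 CPM with its maximum in macrophage-like cells of NEJ677. Irf8 (296 to 744 CPM in dendritic-like cells) and Klf4 (106 to 438 CPM in monocyte-like cells) were at most 3.34 CPM in myelocyte-like cells, and Runx1 was highest in monocyte-like cells, at 124 to 263 CPM. Of the list of 8, 7 genes reached 20 CPM in a myeloid class, and Gfi1 did not.

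Genes with the most similar pattern were named by the Pearson correlation of log2(CPM + 1) over 83 pools of cells (a class in a library), among 12228 genes. The pools share libraries, depth and free RNA, so the values are descriptions. Hnf4a was closest to Rbp4 (0.93), Pcbd1 (0.93) and Ambp (0.92), of which Rbp4 and Ambp also served as hepatocyte markers. Cebpa was closest to Idh1 (0.82), Hsd17b4 (0.81) and Dcxr (0.79), enzymes of cytosol and peroxisome. Cebpb was closest to Rnf149, Nadk and Msrb1 (0.88, 0.88 and 0.87). Foxa1 went with Cutal, Mal2 and Dsc2 (0.83, 0.82 and 0.81) and Foxa2 with Slc25a48 and Acnat1 (0.83 and 0.82). Foxa3 went with Onecut1 (0.83) and Ambp (0.82), which made it the member with another member among its nearest genes. Prox1 went with Slc38a4 (0.89), Ambp (0.86) and Mttp (0.85), and Onecut1 with Slc47a1 (0.89), 2810459M11Rik (0.88) and Shank2 (0.86).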

How the data were processed

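The authors deposited raw UMI counts per gene and barcode, with no cell filter, for 7 libraries. The file headers name Cell Ranger 4, whereas the submitters' processing notes name Cell Ranger 6.0, with introns counted per the methods. The build is not given in the sources used here, so coordinates are those of GENCODE M21, in which 32235 of the 32285 gene identifiers were found. Reading introns as well as exons, and counting from the transcript end, makes levels of different genes not comparable, so levels were compared within a gene.

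The cutoff for certain cells was the UMI count at the 99th percentile of the 3000 largest barcodes, divided by 10. Smaller barcodes, from 500 UMIs, joined when a Monte Carlo test against the ambient profile (ranks 45000 to 90000) gave an adjusted p of 0.01. The test used 10000 draws and took up to 20000 barcodes per library. NEJ634, NEJ709 and NEJ723 met this cap, so some of their barcodes over 500 UMIs went untested. The other libraries had 3908 to 6518 tested. All 5468 hepatocyte-lineage-like cells of NEJ634 had at least 1000 UMIs, against 349 of 566 in NEJ654, so the effective depth limit was higher in NEJ634. With over 1000 UMIs asked of every cell, the same 4 members lay lower in both tumors in this class. A limit of over 500 UMIs and of 20% mitochondrial UMIs left 81670 cells, and 8916 with the highest Scrublet scores were removed at 0.8% per 1000 cells, since its own threshold marked at most 0.0505% of cells. Clustering used scanpy with 2000 variable genes, 40 components, 15 neighbours and Leiden resolution 1, without the members and the genes of the 5 lists, and gave 39 clusters. Clusters were named from 147 markers of 20 classes where their mean log2 fold was at least 1.5 and led by 1, and where 3 or more markers of 10 CPM were raised 2-fold. The lead was taken over classes of other families only. Hepatocyte and hepatoblast formed a family, as did the granulocyte classes, the macrophage, monocyte and dendritic classes, and B and plasma cells. Cluster 0 had a fold of 3.32 for hepatocyte and 3.21 for hepatoblast markers, and 2.10 for the next family. A name also needed at least 100 cells and a correlation with the ambient profile under 0.93. These limits and the Epcam and claudin class were chosen once the data were known. Class names carry "-like" since reference cells were lacking.

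Levels were summed UMIs per 1000000 and were given from 20 cells. A class with 0 UMIs was given the limit that 3 UMIs set. The members and lists were chosen with earlier results of these data known. All members were named, and from each list up to 6 genes of at least 20 CPM with the widest range of log2(CPM + 1) were described. The 3 genes of highest correlation with each member were named over pools of at least 50 cells and 100000 UMIs, except for 2 that are not reported here. The labels gave 0 groups, so there was no test, and the ranges of the libraries that the study calls tumor and healthy were set side by side. The steps were tested on simulated data. Alternatives changed calling, quality limits, doublets, clustering, scaling, weighting, ambient subtraction and thinning. Promoters came from RefSeq (GRCm38.p6) and motif letters were searched on both strands.

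The software was matplotlib 3.10.9, numba 0.67.0, scikit-learn 1.9.0, igraph 0.11.9, anndata 0.12.19, scanpy 1.11.5, pandas 2.3.3, scipy 1.17.1 and numpy 2.4.6 under Python 3.11.15.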

Additional observations from a re-analysis of the deposited data

Results flagged for a closer look

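Cebpb reached 557 CPM (551 to 564) in 46729 barcodes of NEJ634 that had over 500 UMIs but were not called as cells, above the 362 CPM of its hepatocyte-lineage-like cells and next to the ambient level of 545. This was a signal in barcodes that were not used as cells, some of which went untested because of the cap on tested barcodes. Part of them made up the ambient profile of NEJ634, whose barcodes held 210 to 952 UMIs, so these levels are not independent. Cebpa reached 123 CPM (79.3 to 181) in the 55 cells of the unnamed cluster 24 of NEJ634, from 25 UMIs, above the 75.2 CPM of the hepatocyte-lineage-like cells of that library. This was a signal in cells without a class. No explanation was tested for either.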

How the results depend on the processing

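The count of members whose tumor and healthy levels did not overlap in hepatocyte-lineage-like cells was 4 and ranged from 3 to 5 over all alternatives, and from 4 to 5 when each library was left out in turn. Without NEJ634 Foxa3 lay higher in the tumor library, without NEJ638 Foxa1 left the count (no library then reached 20 CPM) and Cebpb lay higher in the tumors, and without NEJ654 Onecut1 lay lower. Foxa1 also left the count with at most 10% mitochondrial UMIs, where its highest level was 19.7 CPM and so under the 20 CPM needed, with the lineage set cell by cell, where NEJ709 and NEJ723 gave levels too, and with the Epcam- and claudin-rich cells counted in it. With the mean over cells Onecut1 took the place of Hnf4a. No member was highest in hepatocyte-lineage-like cells in every library (0, the same with most alternatives), but 2 were by the knee rule alone (Hnf4a and Cebpa) and 1 with each library clustered on its own (Hnf4a). This count ranged from 0 to 1 when each library was left out, with Hnf4a counted without NEJ634. Without doublet removal the cluster led by H19 and Afp (7569 cells of NEJ634) and that of low UMI counts went unnamed, so the class kept 96 cells of NEJ634 from the cluster shared with healthy livers and lost NEJ687. The count of 4 there rests on other cells, and 3 of 32 levels moved by over 1.5 times, up to 1.70 times. In hepatocyte-lineage-like cells, 1 of the other levels with at least 20 UMIs moved that far, to 1.58 times without the cluster of low UMI counts. Smaller moves beyond the interval were common. With the mean over cells 19 of 40 levels left their intervals, 12 down and 7 up. After ambient subtraction 13 of 40 did, and by the knee rule alone 7 of 40. Levels in Epcam- and claudin-rich cells were less stable. With the mean over cells, Foxa1 in NEJ723 went from 11.6 to 4.64 CPM and Hnf4a in NEJ709 from 46.0 to 22.5, and Cebpa in NEJ709 ranged from 25.1 without doublet removal to 102 without shared barcodes. Of the 24 genes with the most similar patterns, 8 were found again with a pseudocount of 10 and 12 with Spearman correlation. Leaving out libraries, shifting the Epcam- and claudin-rich cells and dropping the cluster of low UMI counts were chosen after seeing the data. No paired analysis was possible because the labels put no library in a group and name no pairs. NEJ709 and NEJ723 gave no hepatocyte-lineage-like level, so the tumor side rests on 2 libraries.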
